A study of Mus musculus with 8 samples.

Results

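The DNA replication machinery was described through 48 genes, chosen by symbol from the proteins that license origins, unwind DNA, copy both strands and rebuild chromatin behind the fork. Symbols were matched from the RefSeq accession of each array probe, and all 48 genes were found, on 56 probes, among 19232 genes tested. Of these, 13831 had a symbol. The others were counted under the identifier given by the array, and shares of all genes include them. The samples were total RNA from hand-dissected neocortex of ICR mice at embryonic day 16, without genetic change or treatment. One tissue was the ventricular and subventricular zone (V/SVZ), where neural progenitors divide, and the other the cortical plate (CP), which holds postmitotic neurons. Each was represented by 4 samples, each on a 1-colour array, and the comparison asks how far replication transcripts separate the zones of division from the plate. The labels do not say whether the samples of a tissue were separate animals. The p-values therefore reflect only how these samples scatter, which may be technical.

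Replication starts in G1, when the origin recognition complex (ORC), Cdc6 and Cdt1 load rings of MCM2 to MCM7 on DNA, and geminin (Gmnn) blocks further loading once S phase has begun. The kinase Cdc7 with its activator Dbf4 then lets Cdc45 and the GINS complex join the ring to form the active helicase. Polymerase alpha with primase lays primers, polymerases epsilon and delta extend them on a sliding clamp (Pcna) that replication factor C (RFC) loads, and Fen1 and Lig1 join the fragments of the lagging strand. Many of these genes are targets of E2F transcription factors and are transcribed when cells enter the cycle, whereas several ORC subunits are also made in cells that do not divide.

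The dissection was seen in the marker genes. All 8 radial glia and all 6 intermediate progenitor markers were higher in V/SVZ, and all 8 cortical plate neuron markers were higher in CP. Among other cell types, 10 of 11 microglia markers were higher in V/SVZ, with a summed scaled signal of 11.4 to 17.1 in V/SVZ and 3.44 to 4.81 in CP. Of 12 endothelial and pericyte markers 4 were higher in V/SVZ and 8 not called (9.12 to 10.1 against 7.43 to 8.50), with a median difference of 0.09. The count higher in V/SVZ is near the share over all genes tested, 35%. In CP 0 were higher, beside 44.6% of all genes tested. Of 6 erythroid markers tested 5 were higher in V/SVZ (84.3 to 110.03 against 64.5 to 70.7). Of 7 interneuron markers tested 3 were higher in V/SVZ and 4 in CP, of 4 oligodendrocyte precursor markers 2 were higher in V/SVZ, and of 6 meningeal markers 2 were higher in CP and 1 in V/SVZ. The brightest gene of each list differed by 5.38 (Fabp7), 2.68 (Insm1), -3.03 (Mapt), 1.64 (Csf1r, microglia), 0.27 (Cldn5), 0.49 (Hba-a1), -0.33 (Slc32a1), 0.55 (Olig1) and 1.04 (Col1a2) on the log2 scale. The listed markers Ahsp, Epb42, Dlx6 and Foxd1 were not tested, and the part of these cells in the results below was not tested. On the 8 arrays, 58.4% to 62.9% of gene probes had a signal well above background. V/SVZ arrays filled slide 1 and CP arrays slide 2, so slide and tissue cannot be told apart. The columns of the table the authors deposited went against their names. Each column matched the array of the same number from the other tissue (correlation 1 across probes) and ran opposite to the array it was named for (-0.94 to -0.95), whereas the scanner files carried the markers of their labelled tissue and were used here.

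Replication genes were higher in V/SVZ with few exceptions. Of the 48 genes, 41 were higher in V/SVZ at a limma adjusted p under 0.05, beside 35% of all genes tested, 2 were higher in CP, beside 44.6%, and 5 were not called. Calls in either direction, 43 here, made up 79.5% of all genes. The median difference was 1.96 on the log2 scale, or 3.89-fold, against -0.09 over all genes tested. In 36 genes the difference was called at 2-fold or more, beside 13.7% of all genes, and in 21 at 4-fold or more, beside 7%. It was 8-fold or more in 11 (3.58% of all genes) and 16-fold or more in 5 (1.86%), counting dim genes at their fitted value. The 4 V/SVZ arrays lay above the 4 CP arrays in 41 genes, beside 33.5% of all genes, and below them in 2, beside 41.7%. In these bulk samples fewer cycling cells and less RNA per cell cannot be told apart. Levels are given as log2 processed signal relative to the 75th percentile of the array, so a level of 0 is that percentile, and levels can be compared between tissues but not between genes.

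All 48 genes passed the filter on dim probes, 43 of them well above background on all 8 arrays. Orc1, Cdc6, Gmnn and Clspn passed through V/SVZ alone, being well above background on no CP array, and Prim2 was so on 3 CP arrays. For the 4 dim genes the fold is written as at least, a lower bound for the processed signal only. It sets the V/SVZ mean against the gene's own CP signal or, where higher, the lowest CP signal that counts as above background. After another background correction, normexp with quantile normalization, all 4 fell below that bound: Gmnn to 24.9-fold, Clspn to 8.15-fold, Cdc6 to 7.74-fold and Orc1 to 2.87-fold.

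**Figure D1:**
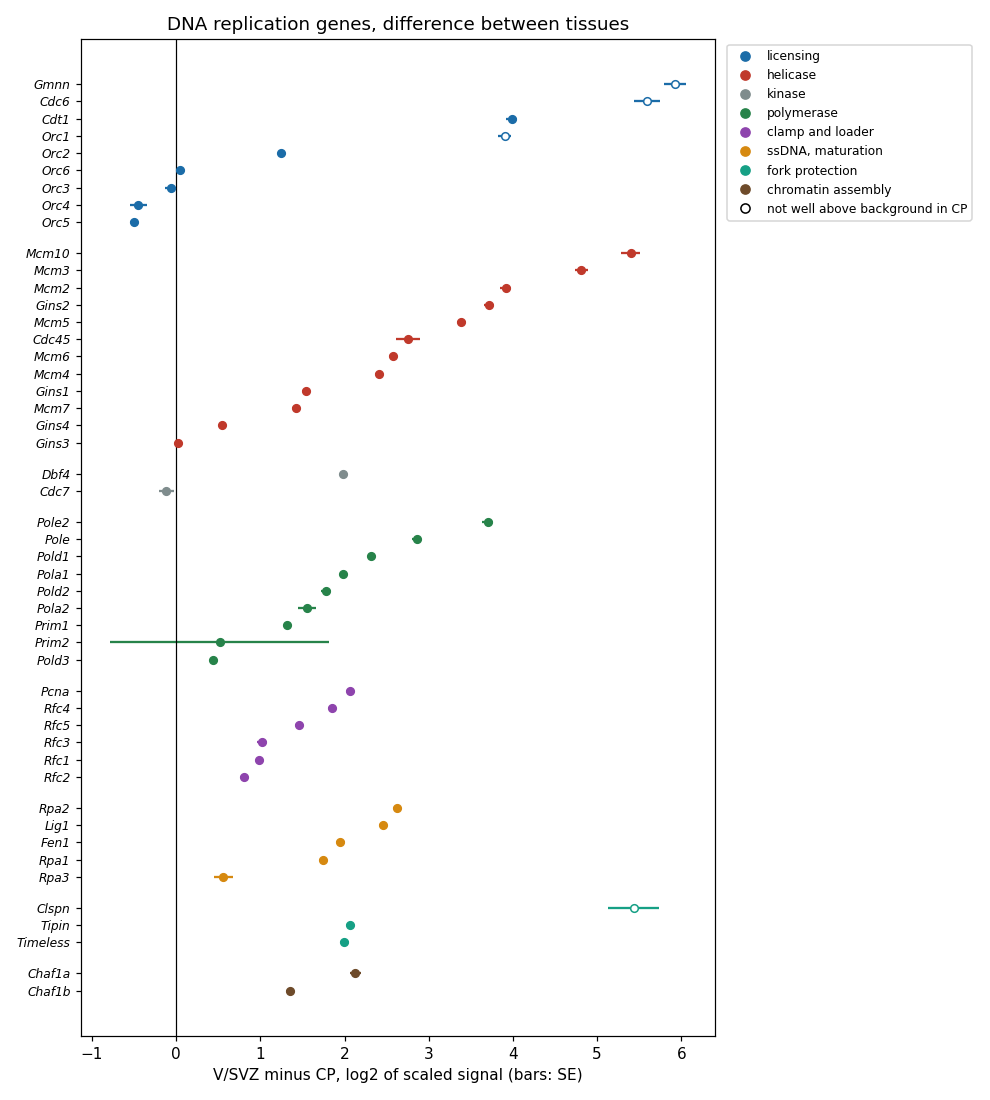
Difference between tissues for each of the 48 genes, V/SVZ minus CP on the log2 scale, with bars for the standard error (n = 4 arrays per tissue) and colours for the role. The licensing genes spread from -0.51 for Orc5 to 5.93 for Gmnn and the clamp genes from 0.80 to 2.06, and open points mark the 4 genes with no CP array well above background.

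The licensing genes divided into a strongly V/SVZ group and a flat group. Gmnn, the inhibitor of licensing, stood at 0.26, 0.37, 0.12 and 0.26 on the V/SVZ arrays and at -5.75, -5.42, -5.52 and -6.01 on the CP arrays. It was thus at least 55.3-fold higher in V/SVZ (limma adjusted p = 3.58e-09). Cdc6, which completes the loading complex on ORC, stood at -1.74, -1.64, -1.64 and -1.47 in V/SVZ and at -7.39, -6.92, -6.95 and -7.59 in CP, and was at least 16.9-fold higher in V/SVZ. Its second probe was likewise well above background on no CP array. Cdt1, the loading factor that Gmnn binds, was bright in V/SVZ (2.87, 2.80, 2.64 and 2.77) and still well above background in CP (-1.15, -1.33, -1.12 and -1.26). It differed by 3.99 ± 0.07 (SE), or 15.9-fold. In each of the 3 genes no array overlapped between the tissues. For Gmnn and Cdc6, kept in the test through V/SVZ alone, this adds no support.

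The subunits of ORC, which marks origins, did not move together. Orc1, the subunit known to cycle in dividing cells, stood between -4.13 and -3.98 in V/SVZ and between -8.16 and -7.83 in CP, at least 3.11-fold higher in V/SVZ. Orc2 was 2.37-fold higher in V/SVZ, at -0.94, -0.97, -0.98 and -0.93 against -2.21, -2.20, -2.12 and -2.26 in CP. Both therefore rose towards the germinal zone, Orc1 from a CP signal that was not above background.

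The other 4 subunits were flat or ran the other way. Orc5 was 1.42-fold higher in CP (difference -0.51 ± 0.04 SE, limma adjusted p = 1.18e-05), with -2.29, -2.23, -2.36 and -2.25 in V/SVZ and -1.82, -1.79, -1.70 and -1.80 in CP. Orc4 was 1.36-fold higher in CP (-0.45 ± 0.10 SE, limma adjusted p = 0.00332), but its second probe gave 0.00 and was not called. The Orc4 difference was -0.18 (1.13-fold) after normexp and -0.22 with the mean of its probes, both still called. Orc3 and Orc6 were not called. Their differences were -0.06 (95% interval -0.23 to 0.10) for Orc3 and 0.04 (95% interval -0.05 to 0.13) for Orc6. Orc6 was bright on all arrays, at 2.31 to 2.42 in V/SVZ and 2.29 to 2.36 in CP, and the tissues overlapped. The processing decided its call, with 0.35 after normexp and 0.11 after quantile normalization, both called. A second, dimmer Orc3 probe was called towards CP (-0.53), as was Orc3 with the mean of its probes (-0.30). Over the 6 subunits the median difference was -0.01, with 2 higher in V/SVZ, 2 higher in CP and 2 not called.

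**Figure D2:**
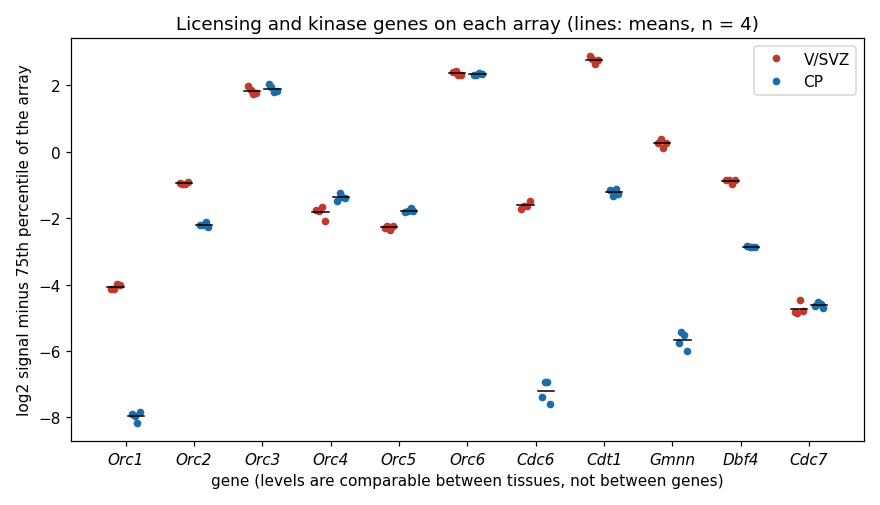
Level of 9 licensing genes and the 2 kinase genes on each array, in log2 signal minus the 75th percentile, with black lines for the means of 4 arrays. Red V/SVZ and blue CP points separate widely in Cdc6, Cdt1, Gmnn, Orc1 and Dbf4, lie close in Orc3, Orc6 and Cdc7, and run the other way in Orc4 and Orc5.

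The helicase genes had the largest median difference of the 4 main groups, 2.67, with 11 of 12 higher in V/SVZ and 1 not called. The median was 1.78 for the polymerase group, 1.25 for licensing and 1.24 for the clamp and its loader. The licensing median rests on Orc1, Cdc6 and Gmnn, which were dim in CP. It was -0.011 over the 6 licensing genes well above background on all arrays, a filter that by design drops genes that are low in CP. With the dim genes set at their bounds the licensing median was unchanged at 1.25. After normexp it was 1.12, where the clamp group stood at 1.27. The 6 subunits of the MCM ring, which form a single hexamer, were all higher in V/SVZ, but by different amounts. Mcm3 differed most, at 3.18, 3.19, 3.05 and 3.10 in V/SVZ against -1.63, -1.89, -1.52 and -1.69 in CP, a 28.1-fold difference (4.81 ± 0.08 SE, limma adjusted p = 1.03e-09). Mcm7 differed least, at 4.31, 4.22, 4.16 and 4.31 against 2.85, 2.79, 2.88 and 2.79, or 2.68-fold. Between them lay Mcm2 (15.1-fold), Mcm5 (10.5-fold), Mcm6 (5.97-fold) and Mcm4 (5.29-fold). In none of the 6 did an array of one tissue overlap those of the other.

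Mcm10, which acts when the helicase is switched on, had the largest difference in processed signal among the genes well above background on all arrays, while after normexp Mcm3 (28.2-fold) exceeded it. It stood at 1.36, 1.42, 1.19 and 1.37 in V/SVZ and at -4.15, -4.19, -3.72 and -4.19 in CP, a 42.2-fold difference (5.40 ± 0.11 SE), or 25.6-fold after normexp. Cdc45, the helicase partner that joins at origin firing, was 6.74-fold higher in V/SVZ (4.20-fold after normexp), at -1.65, -1.61, -1.71 and -1.51 against -4.25, -4.68, -4.03 and -4.55. The CP array 3 was the highest CP array for both genes.

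The 4 GINS subunits, which bind as a tetramer, differed from 0.03 to 3.72 among themselves. Gins2 was 13.1-fold higher in V/SVZ, at 0.76, 0.68, 0.61 and 0.83 against -2.97, -3.08, -2.93 and -3.01 in CP. Gins1 was 2.90-fold and Gins4 1.46-fold higher in V/SVZ. Gins3 was not called, at 3.39, 3.40, 3.39 and 3.45 in V/SVZ and 3.49, 3.33, 3.37 and 3.34 in CP, so that the tissues overlapped. Its difference of 0.03 has a 95% interval from -0.08 to 0.13. In the kinase that fires origins, the activator and the catalytic subunit also parted. Dbf4 was 3.94-fold higher in V/SVZ, at -0.86, -0.86, -0.96 and -0.87 against -2.84, -2.88, -2.87 and -2.87. Cdc7 was not called, at -4.82, -4.86, -4.45 and -4.78 against -4.64, -4.53, -4.59 and -4.70, with a difference of -0.12 and a 95% interval from -0.33 to 0.10. Without V/SVZ array 3, its highest V/SVZ array, Cdc7 was called towards CP (-0.21, limma adjusted p = 0.00638).

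**Figure D3:**
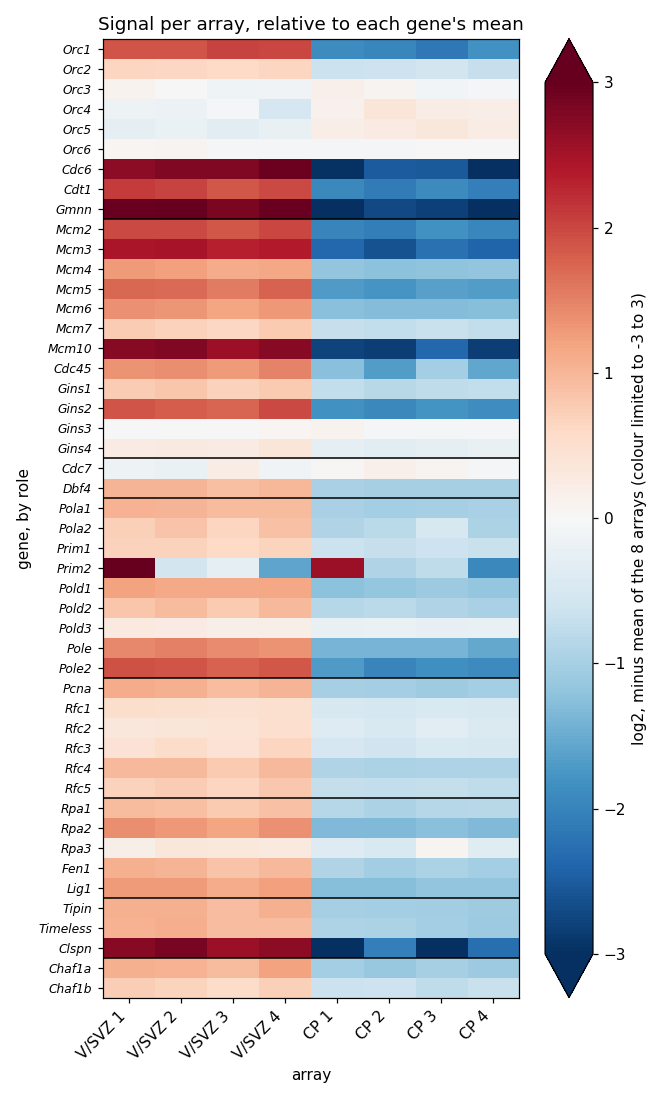
Signal of the 48 genes on each of the 8 arrays relative to the mean of the gene, on the log2 scale, with black lines between roles. Most rows are red on the 4 V/SVZ arrays and blue on the 4 CP arrays, while Orc3, Orc6, Gins3 and Cdc7 are pale throughout and Prim2 is high on array 1 of both tissues.

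Of the 9 polymerase genes, 8 were higher in V/SVZ and 1 was not called. Pole2, the second subunit of polymerase epsilon on the leading strand, was 13.0-fold higher, at -0.35, -0.37, -0.49 and -0.38 in V/SVZ against -3.94, -4.22, -4.08 and -4.15 in CP. Its catalytic partner Pole was 7.25-fold higher. In polymerase delta, which copies the lagging strand, the catalytic subunit gene Pold1 was 4.99-fold and Pold2 3.42-fold higher in V/SVZ. Pold3, an accessory subunit, differed least of the called polymerase genes, at 2.38, 2.33, 2.26 and 2.28 against 1.87, 1.90, 1.86 and 1.87, or 1.35-fold (limma adjusted p = 8.81e-06). The tissues did not overlap even there.

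Polymerase alpha and primase, which start each new strand, had smaller differences than epsilon. Pola1 was 3.93-fold and Pola2 2.94-fold higher in V/SVZ, and the catalytic primase gene Prim1 2.50-fold, at 2.75, 2.76, 2.65 and 2.73 against 1.41, 1.37, 1.44 and 1.40. Prim2, the large primase subunit, was not called (0.52 ± 1.30 SE, 95% interval -2.51 to 3.54). Its probe read -0.20, -4.17, -3.91 and -5.21 in V/SVZ and -1.07, -4.53, -4.38 and -5.57 in CP, so array 1 was far above the other 3 in both tissues. Array 1 took the same position on both slides. The spread of this single probe was 2.19 (SD) in V/SVZ, against a median of 0.07 over the 48 genes. With the replicate number as a block Prim2 was called towards V/SVZ (adjusted p = 0.00712), whereas without array 1 of both tissues, a choice made after seeing the values, the difference was 0.40 and was not called (adjusted p = 0.463). It turned to -0.54 without V/SVZ array 1 and to -0.05 without CP array 4.

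The clamp and its loader were all higher in V/SVZ, 6 of 6, within a narrow range. Pcna, the ring that holds polymerases on DNA, was bright in both tissues, at 5.20, 5.16, 5.03 and 5.12 in V/SVZ against 3.09, 3.08, 3.02 and 3.07 in CP, or 4.17-fold higher (2.06 ± 0.04 SE, limma adjusted p = 3.21e-09). Among the subunits of RFC, Rfc4 was 3.60-fold and Rfc5 2.75-fold higher in V/SVZ. Rfc3 (2.03-fold), the large subunit gene Rfc1 (1.98-fold) and Rfc2 (1.75-fold) followed. A second Rfc4 probe gave a difference of 1.98, beside 1.85 for the probe used.

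The remaining groups went the same way. Replication protein A (RPA) coats single-stranded DNA at the fork. Its middle subunit gene Rpa2 was 6.16-fold higher in V/SVZ, at 0.74, 0.66, 0.54 and 0.74 against -1.97, -1.97, -1.90 and -1.97, and the large subunit gene Rpa1 3.35-fold. The small subunit gene Rpa3 was 1.47-fold higher (0.56 ± 0.12 SE, limma adjusted p = 0.00245), at 3.26, 3.42, 3.40 and 3.39 against 2.71, 2.64, 3.17 and 2.72, where CP array 3 came close to V/SVZ. The flap nuclease gene Fen1 was 3.86-fold and the ligase gene Lig1, which seals the lagging strand, 5.48-fold higher in V/SVZ.

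Clspn encodes claspin, which links the fork to the kinase Chk1. It was at least 12.7-fold higher in V/SVZ, at -2.01, -1.90, -2.15 and -2.07 against -7.90, -6.79, -8.16 and -7.00, where the CP arrays spread over more than 1 log2 unit below the background limit. Timeless and Tipin, which form the fork protection complex together, differed almost equally, by 3.99-fold and 4.17-fold. The genes of the chromatin assembly factor, which deposits histones on new DNA, were higher by 4.37-fold (Chaf1a) and 2.55-fold (Chaf1b), the latter with a second probe at 1.37 beside 1.35 on the log2 scale.

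Whether partners within a complex differed unequally was tested on the log2 ratio of 2 genes within each array, which does not depend on the scaling between arrays. Of 14 pairs, 12 had ratios that did not overlap between the tissues. Each gave p = 0.0286 in a 2-sided exact permutation test, the smallest value that 4 against 4 arrays allow. After Benjamini-Hochberg adjustment over the pairs this was 0.0333. The share of arbitrary gene pairs that separate as fully was not counted. Taken singly, 33.5% of all genes tested had every V/SVZ array above every CP array, and 41.7% the reverse. The count of 12 therefore does not set these pairs apart from other gene pairs. The Gins2 to Gins3 ratio ran from -2.78 to -2.62 in V/SVZ and from -6.46 to -6.30 in CP, a difference of differences of 3.69. Dbf4 to Cdc7 gave 2.09, and Pold1 to Pold3 1.88. Gins3 and Cdc7 were themselves not called, whereas Pold3 was called towards V/SVZ by a smaller amount than Pold1.

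Within the other groups the unequal change was smaller or rested on a dim gene. Mcm10 exceeded Mcm2 by 1.48, Rpa2 exceeded Rpa1 by 0.88, Rfc4 exceeded Rfc1 by 0.87, Pole2 exceeded Pole by 0.84 (0.28 after normexp), and Chaf1b fell behind Chaf1a at -0.77. Orc6 fell behind Orc2 at -1.21 (-0.77 after normexp). The ratios with a gene not above background in CP were 4.34 for Cdc6 to Orc2 (1.84 after normexp), 2.65 for Orc1 to Orc2 (0.40 after normexp) and -1.94 for Cdt1 to Gmnn (-0.78 after normexp). The ratio of Timeless to Tipin did not pass (-0.06, exact permutation p = 0.171, adjusted 0.185), nor did that of Prim1 to Prim2 (0.80, exact permutation p = 0.514, adjusted 0.514).

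**Figure D4:**
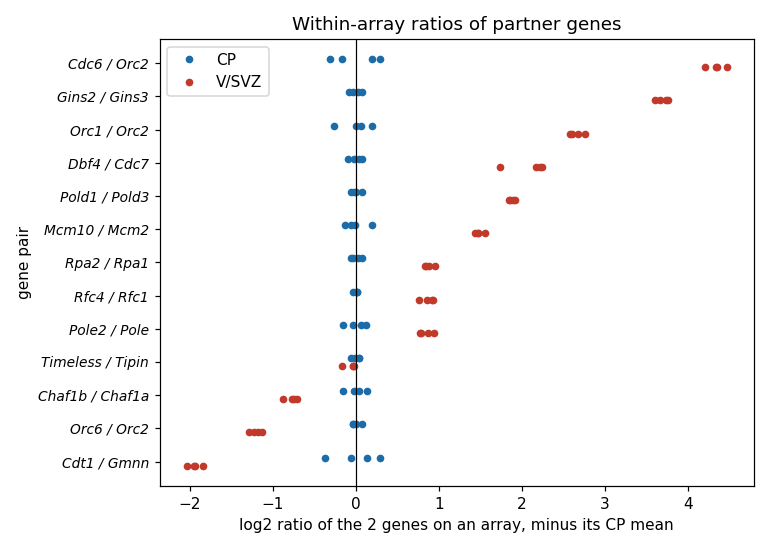
Log2 ratio of 2 partner genes on each array, minus the mean ratio of the CP arrays, for 13 pairs (Prim1 to Prim2, with a wide spread, is left out). Red V/SVZ points lie apart from the blue CP points in 12 pairs, with Gins2 to Gins3 at 3.69 the largest among pairs well above background on all arrays, and overlap in Timeless to Tipin.

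**Figure D5:**
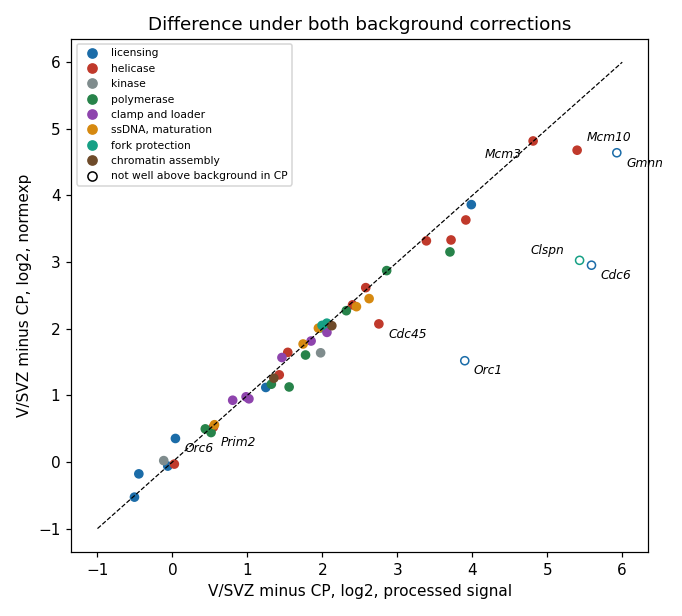
Difference between tissues with the processed signal (horizontal axis) against the difference after normexp background correction and quantile normalization (vertical axis), both V/SVZ minus CP on the log2 scale, with a dashed line of equality. Most of the 48 genes lie on or near the line, while the 4 open points, for genes with no CP array well above background, lie below it, Orc1 at 3.90 against 1.52.

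Promoters were read for what the genes share in sequence. RefSeq promoters of build GRCm38.p6 (250 bases before to 50 after the start site, 300 in all) were found for 39 of the 48 genes. They were searched on both strands for 4 forms of the E2F letters, TTTCGCGC, TTTGGCGC, TTTCCCGC and TTTGCCGC, which can overlap one another. Of these 39 genes, 16 held at least 1 form, or 41%, against 2.6% of 27025 genes of the whole table and 4.45% of the 11001 that were tested on the arrays. The letters CCAAT were in 59% of the 39 genes and 41.1% of the table, and TTTGAA, the letters of the CHR element of mitotic genes, in 17.9% and 20.2%. Among the genes tested on the arrays the shares were 42.9% for CCAAT and 14.5% for TTTGAA.

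The stretches below show the matches, in capitals, for genes of several roles called higher in V/SVZ (Orc1, Cdc6, Mcm5, Mcm6 and Pola1) and for Orc3 and Gins3, which hold the letters but did not differ between tissues by the test. Each is on the strand of the gene, 5′ to 3′, ends before the start site and has up to 20 bases of flank.
Orc1, chr4:108579407-108579453, plus strand: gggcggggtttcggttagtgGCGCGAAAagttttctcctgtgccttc
Cdc6, chr11:98907993-98908040, plus strand: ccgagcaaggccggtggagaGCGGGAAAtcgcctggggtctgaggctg
Mcm5, chr8:75109336-75109387, plus strand: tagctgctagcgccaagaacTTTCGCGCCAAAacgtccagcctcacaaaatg
Mcm6, chr1:128359725-128359835, minus strand: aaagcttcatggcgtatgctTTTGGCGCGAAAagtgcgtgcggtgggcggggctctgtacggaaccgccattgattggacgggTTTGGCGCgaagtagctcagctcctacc
Pola1, chrX:93632266-93632313, minus strand: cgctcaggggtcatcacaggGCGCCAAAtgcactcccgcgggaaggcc
Orc3, chr4:34614956-34615003, minus strand: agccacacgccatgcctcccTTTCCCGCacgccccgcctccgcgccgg
Gins3, chr8:95633498-95633545, plus strand: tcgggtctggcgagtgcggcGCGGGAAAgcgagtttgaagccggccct

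In Mcm5 and Mcm6 matches on both strands overlap within 12 bases, and Mcm6 holds a further match 47 bases before the start site. The 16 genes with the letters were Orc1, Orc3, Cdc6, Cdt1, Mcm3, Mcm5, Mcm6, Mcm7, Gins3, Pola1, Pold1, Pold3, Pole2, Rfc3, Lig1 and Clspn. Their differences ran from -0.06 to 5.59 with a median of 2.52, and those of the 23 genes without ran from -0.51 to 5.40 with a median of 1.74. Mcm10 (5.40) and Mcm2 (3.91) were among the genes without the letters in this window, and Gins3 and Orc3 among those with them. A fitted difference of 4-fold or more was found in 10 of the 16 genes with the letters and in 6 of the 23 without. This is a description with no test. The 10 include Orc1, Cdc6 and Clspn, which passed the filter through V/SVZ alone. Orc1 was 3.11-fold higher at its bound and 2.87-fold after normexp. Gmnn, the other such gene, had no promoter here, so the 23 hold no gene that passed in this way. Among genes tested that are not replication members, the letters were in 5.62% of 872 called towards V/SVZ at 4-fold or more. This is close to the 4.32% over all such genes, and the share was 1.47% of 682 called as far towards CP. The other motifs leaned the same way. CCAAT was in 48.6% of those towards V/SVZ and 37.7% of those towards CP (42.9% over all), and TTTGAA in 21.1% and 13.9% (14.5% over all).

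Other genes of the pathway, from fixed lists, followed in most cases. Of 25 further origin and fork factors, 22 were higher in V/SVZ (beside 35% of all genes), 2 higher in CP (beside 44.6%) and 1 not called. Their median was 1.31. Ticrr, which brings Cdc45 to origins, was 21.5-fold higher in V/SVZ, at 0.57, 0.62, 0.57 and 0.50 against -3.82, -3.82, -3.85 and -3.97. Chtf18 and Dscc1, subunits of an alternative clamp loader, were 12.4-fold and 11.8-fold higher. Chtf8, the third specific subunit of that loader, was instead higher in CP by 1.07-fold, and Pold4, the smallest subunit of polymerase delta, by 1.11-fold. Their differences of -0.10 and -0.15 lie close to the median of all genes tested, -0.09. The MCM-binding protein gene Mcmbp was not called (0.04).

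Of 17 nucleotide supply genes, 14 were higher in V/SVZ (beside 35% of all genes), 1 was higher in CP and 2 were not called. Their median was 1.16. Tk1, thymidine kinase, was 49.9-fold and Rrm2, the S-phase subunit of ribonucleotide reductase, 6.88-fold higher in V/SVZ. Rrm2b, the subunit of that enzyme used outside S phase, was 1.38-fold higher in CP, at -4.23, -4.16, -4.24 and -4.26 against -3.75, -3.76, -3.77 and -3.75. Cad (-0.05) and Ctps (-0.03), which make pyrimidines, were not called.

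Of 12 genes of chromatin copying, 10 were higher in V/SVZ, beside 35% of all genes, with a median of 1.57. Uhrf1, which recognises newly copied methylated DNA, was 31.1-fold, the histone chaperone gene Asf1b 26.8-fold and Cdca7 15.2-fold higher in V/SVZ. Asf1a, the paralog of Asf1b, was not called (-0.12), and Hira, a histone chaperone that works outside replication, was 1.34-fold higher in CP. Of 12 replication checkpoint genes listed, 11 were tested and 10 were higher in V/SVZ, beside the same 35%, with a median of 0.87. Wee1, which restrains cyclin-dependent kinases, was 12.8-fold, Hus1, of the checkpoint clamp, 7.74-fold and the phosphatase gene Cdc25b 3.63-fold higher. Atrip, the partner of the kinase Atr, was 1.19-fold higher in CP (-0.25, or -0.07 after normexp), while Chek1 was not tested.

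The replication genes also shared their small differences between arrays of 1 tissue. V/SVZ array 3 was the lowest V/SVZ array in 37 of the 48 genes, beside 35.6% of all genes tested, with a median deviation of -0.09 from the gene's V/SVZ mean against -0.02 over all genes. In CP, array 2 was the lowest in 26 of the 48, beside 27.7% of all genes, with a median deviation of -0.03. These shifts are small next to the tissue difference. The median replicate SD of the 48 genes was 0.07 in V/SVZ and 0.06 in CP, against 0.09 and 0.08 over all genes tested.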

How the data were processed

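Total RNA (100 ng) was labelled with Cy3 per the labels' protocols. Agilent Feature Extraction 10.7.1.1, per the file headers, made the deposited intensity values used, background-subtracted and detrended within each array and not scaled between arrays. The log2 table that the authors deposited, whose row centring was inferred from its values and whose scaling is unknown, served as an alternative with tissues turned.

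After leaving out control and outlier spots (142 to 258 per array), repeat spots were averaged as log2 values, and the 75th percentile of each array (2113 to 2566 intensity units) was subtracted. Testing required a signal well above background on all 4 arrays of 1 tissue and values on 3 or more arrays in both. This kept 23860 of 39429 gene probes. RefSeq accessions named 26761 probes. A gene was represented by its brightest tested probe. Array headers name build mm9, so probes have no coordinates here. Tissues were compared in limma 3.58.1 (lmFit, eBayes; R 4.3.3) over 19232 genes, with Benjamini-Hochberg adjustment at 0.05. Simulated data tested only the fitting step, with noise independent between arrays and no slide effect, so they do not vouch for the p-values here. Members and lists were chosen with earlier results of these data known. Named were all members, and from each further pathway list the 3 largest called differences above background on all arrays plus every gene not called, not tested or higher in CP. The brightest gene of each marker list was named too. Some items due by this rule are not reported here. Alternatives changed background correction, scaling, filter, probe choice, variance model, block and arrays left out. The number of arrays limits precision. Same-numbered arrays deviated together with correlations of 0.34, 0.31, 0.098 and 0.20, against means of -0.126 to -0.022 for other numbers.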

Additional observations from a re-analysis of the deposited data

Results flagged for a closer look

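In 8 of 96 groups of 4 arrays (48 genes in 2 tissues) 1 array lay apart from the others by Dixon's criterion, where chance flags about 1 in 20 groups, or 4.8. In V/SVZ, array 3 was low for Dbf4 (-0.96, others -0.87 to -0.86), Rfc4 (3.06, others 3.23 to 3.24) and Tipin (2.63, others 2.75 to 2.76), and array 4 was high for Gins3 (3.45, others 3.39 to 3.40). In CP, array 3 was high for Mcm10 (-3.72, others -4.19 to -4.15), Rpa2 (-1.90, others -1.97 to -1.97) and Rpa3 (3.17, others 2.64 to 2.72), and array 4 was low for Pole (-0.86, others -0.72 to -0.70).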

How the results depend on the processing

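The count of 41 genes higher in V/SVZ stayed between 37 and 42 under all alternatives, the 37 being of 43 genes left when probes dim on any array were dropped, and was 41 without each array in turn. The genes higher in CP numbered 2 or 3 in all settings. The median difference of the 48 genes was 1.79 after normexp with quantile normalization, 2.05 with median scaling, 1.85 where probes dim on any array were left out, and 1.94 to 1.99 without 1 array. For licensing it was 1.12, 1.33 and -0.011 in these settings (1.22 to 1.27 without 1 array), the last over 6 genes with 2 called, since Orc1, Cdc6 and Gmnn drop out. For helicase genes it was 2.49 after normexp, 2.75 with median scaling and 2.73 with quantile normalization (2.61 to 2.72 without 1 array). For polymerase genes it was 1.61 after normexp, 1.86 with median scaling, 1.88 without probes dim on any array and 1.98 in the deposited table (1.74 to 1.81 without 1 array), and for the clamp 1.33 with median scaling (1.21 to 1.27 without 1 array). Over all genes the median was -0.043 after normexp, -0.0053 with median scaling, -0.045 with quantile normalization, -0.079 with spike-in scaling, -0.30 without a filter and -0.036 in the deposited table (-0.10 to -0.09 without 1 array).

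Of the 48 genes, 43 kept direction and call in every setting where they were tested. The exceptions were Orc3, Orc6, Gins3, Cdc7 and Prim2, none called in the setting reported. Signs turned for Orc3 with median scaling (0.026), for Gins3 (-0.032) and Cdc7 (0.020) after normexp, and for Prim2 without V/SVZ array 1 (-0.54) or CP array 4 (-0.046), with a range of -0.54 to 1.45 without 1 array. The ratio of Prim1 to Prim2 turned to -0.13 without CP array 1. With normexp or the mean of probes 12 pairs passed as before. Without 1 array the permutation test cannot reach 0.05, so no count was made. The replicate block changed 1 call among the 48 genes, Prim2 (0.52, adjusted p = 0.00712), and gave 42 genes higher in V/SVZ. The same-number correlation of 1 pair of arrays was 0.098, just below 0.1, so the numbers were not taken as pairs. All same-number correlations were positive, so some shared variation between these arrays remains outside the main test. Slide as a block could not be fitted. Signals near background limit the folds of Orc1, Cdc6, Gmnn and Clspn.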
